A study of Vitis vinifera with 16 samples.

Results

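VviMYBA2 (transcript XM_002265012.1, RefSeq symbol LOC100232838, 1158 bases long) was followed as 1 transcript of the 23984 in the tables. It was chosen by its identifier and read in every stage, region, vintage and library, as a marker of véraison onset. The berries were Muscat Blanc à Petits Grains, a white aromatic cultivar of Vitis vinifera, and all of them were deseeded before RNA was extracted. They came from 1 vineyard in Gaotai (GT, Gansu province) and 1 in Changli (CL, Hebei province), whose vines were planted in different years. They were sampled at E-L31 (pea-size), E-L35 (véraison, softening and first colour), E-L36 (intermediate sugar) and E-L38 (harvest), in the vintages 2011 and 2010, which gives 16 samples in 8 groups of 2. Each E-L31 and E-L36 sample was 1 library and each E-L35 and E-L38 sample 2 libraries, 24 in all, with no treatment and no other genotype. The study divided each vineyard into communities and collected 2 biological repeats, and its methods do not say which repeat each library came from. Region, site and vine age cannot be told apart, and the 2 vintages served as the replicates of a group.

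VviMYBA2 codes for an R2R3-MYB transcription factor of the grape berry colour locus. Together with its close relative VviMYBA1 it switches on the glucosyltransferase that makes anthocyanins stable, and with it the colouring of the skin at véraison. White cultivars carry inactive forms of these genes, and RNA of VviMYBA2 was read here in berries of a white cultivar. The bHLH and WD40 proteins that work beside such MYB factors, and the enzymes of the flavonoid route, are the other parts of this pathway.

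The libraries held 3798921 to 22917077 reads assigned to transcripts. The library labelled GT E-L31 2011 stood apart from its stage: over all transcripts on log2(RPKM + 1) (RPKM, reads scaled to transcript length and to the mapped reads of the library) its Pearson's r was 0.949 to 0.972 with the E-L35 samples and 0.876 to 0.901 with the 3 other E-L31 samples. Its nearest sample was GT E-L35 2010. Tests of VviMYBA2 at the steps it enters are therefore given with and without it. For some other transcripts only the values with all 16 samples are given. What set the library apart was not tested.

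In pea-size berries VviMYBA2 had at most 4 reads in 3 of the 4 samples. In GT it stood at 54.8 RPKM (655 reads) in the library labelled E-L31 2011 and at 0 RPKM in 2010, where 0 of 3798921 reads allow a level of up to 0.682 RPKM. In CL it stood at 0.197 RPKM (4 reads) in 2011 and 0.0919 RPKM (2 reads) in 2010. The 3 low samples lie far under the remaining one, which is the library that stood apart over all transcripts. In bulk berries, fewer cells that carry a transcript and less RNA per cell cannot be told apart.

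At véraison (E-L35) VviMYBA2 was read in every sample. GT berries had 13.7 RPKM in 2011 and 47.6 RPKM in 2010, and CL berries had 6.76 RPKM in 2011 and 44.5 RPKM in 2010. Both 2011 samples were below both 2010 samples, and the regions overlapped. The highest levels came at E-L36, with 128 RPKM in 2011 and 73.9 RPKM in 2010 in GT, against 52.9 RPKM in 2011 and 80.1 RPKM in 2010 in CL. At that stage the transcript ranked between the 91.4th and the 97.0th percentile of all transcripts in its sample by RPKM. At harvest (E-L38) GT berries had 30.5 RPKM in 2011 and 43.97 RPKM in 2010, and CL berries had 19.4 RPKM in 2011 and 46.3 RPKM in 2010. E-L36 was the highest stage in each of the 4 courses (GT and CL in each vintage), which held for 26 of 18064 transcripts with at least 1 RPKM in some sample (0.144%).

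**Figure D1:**
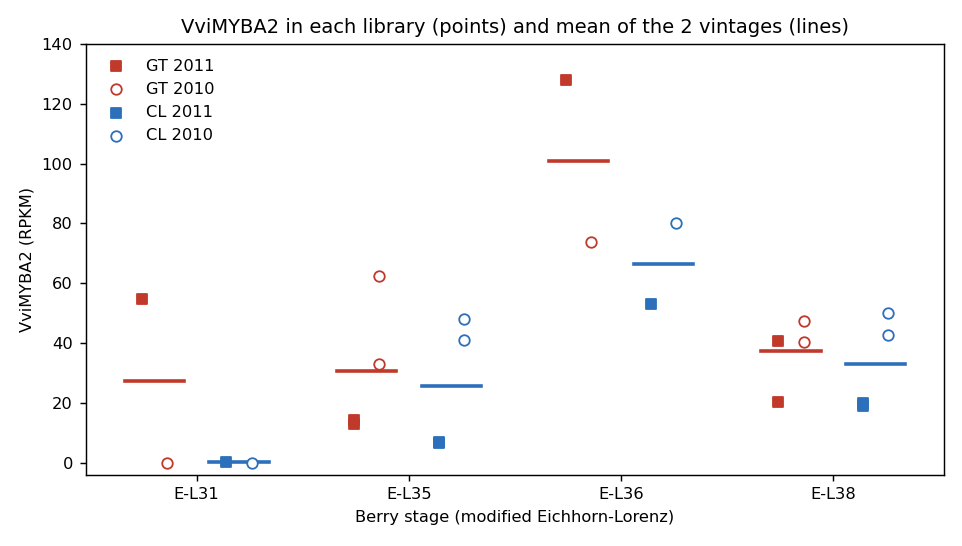
RPKM of VviMYBA2 (vertical axis) in each library (points) at the 4 berry stages (horizontal axis), with GT in red and CL in blue, 2011 as filled squares and 2010 as open circles. Lines are the means of the 2 vintages. The square at 54.8 RPKM in E-L31 is the library that resembles E-L35 berries, and the other E-L31 points lie at or under 0.197 RPKM.

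Ordered by group mean, VviMYBA2 ran from GT E-L36 (100.9 ± 38.1 RPKM, SD, n = 2 vintages for each group) and CL E-L36 (66.5 ± 19.2 RPKM) down to GT E-L38 (37.2 ± 9.51 RPKM) and CL E-L38 (32.9 ± 19.0 RPKM). GT E-L35 (30.7 ± 24.0 RPKM), the group labelled GT E-L31 (27.4 ± 38.8 RPKM), CL E-L35 (25.6 ± 26.7 RPKM) and CL E-L31 (0.144 ± 0.0743 RPKM) followed. Among neighbours in this order, the vintages of CL E-L36 lay above those of GT E-L38, and those of CL E-L35 above those of CL E-L31. All other neighbours overlapped.

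The 2 libraries of an E-L35 or E-L38 sample show the spread within 1 vineyard and season, in which biological and technical parts cannot be told apart. In 6 of the 8 samples with a library pair, the higher VviMYBA2 value was 1.06 to 1.18 times the lower. The exceptions were GT E-L35 2010, with 62.4 and 32.9 RPKM (1.89 times), and GT E-L38 2011, with 40.7 and 20.4 RPKM (1.99 times). These 2 gaps were at the 92.7th and 97.8th percentile of the gaps of transcripts above a minimum of reads in the same pairs (13045 and 9184 transcripts). For the summed libraries the exact 95% Poisson interval was 42.3 to 47.5 RPKM at GT E-L35 2010 and 26.3 to 32.9 RPKM at GT E-L38 2011. The values of the single libraries lay outside these intervals. No interval was computed for the single libraries of these 2 pairs. At GT E-L36 2011 the interval was 124 to 132 RPKM, and at CL E-L35 2011, with 165 reads, 5.87 to 8.01 RPKM. Such intervals cover counting error only.

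VviMYBA2 belongs to a cluster of near-identical MYBA copies, so reads shared between copies are uncertain. In the samples with at least 161 reads, 84.8% to 94.6% of its reads mapped to it alone among the transcripts in the tables. Several genes beside it were not in the tables. Reads from a near copy that is absent there could be counted as unique to VviMYBA2. In the RefSeq gene order (assembly ASM3070453v1), its nearest neighbour in the tables, LOC100261946 (XM_002264614.1), had 0 reads in all 16 samples. The next measured gene on the other side, LOC100265506 (XM_002264730.1), reached 8.99 RPKM, and LOC100253346 (XM_002264221.2) beyond it 45.2 RPKM. MYBA6 (XM_002274956.1), another member of the MYBA family, never exceeded 0.761 RPKM.

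The step from pea-size berries to véraison was tested first, since it is the step VviMYBA2 would mark. In CL, the rate of VviMYBA2 reads at E-L35 was 34.9 times that at E-L31 in 2011 (95% counting interval 13.4 to 130) and 464 times in 2010 (128 to 3835, on 2 reads at E-L31). In GT it was at least 65.8-fold higher in 2010 against the floor of 3 reads in the E-L31 library, and the wider two-sided 95% counting interval of that ratio starts at 53.4. In 2011, the year of the library that stood apart, it was 0.252 times (0.210 to 0.299). So the level was higher at E-L35 in 3 of the 4 courses and lower in 1.

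With all 16 samples the mean step over both regions was 3.91 ± 1.18 (log2 ratio ± SE) with an adjusted p of 0.071 in edgeR's quasi-likelihood test with Benjamini-Hochberg adjustment. It missed the call, which asks for an adjusted p of at most 0.05 and a log2 ratio of at least 1 in size. Of all transcripts, 4.15% were called at this step. Without the library labelled GT E-L31 2011 the step was 9.85 ± 1.59 (adjusted p = 0.0021) and was called, as were 13.7% of all transcripts. That value includes the GT group at 0 reads and so depends on the prior count. In CL alone, where both E-L31 samples held reads, the step was 7.76 ± 1.97 (adjusted p = 0.060) with all samples and 7.76 ± 1.28 (adjusted p = 0.0054, called) without that library, beside 0.699% and 9.07% of all transcripts called. The CL samples are the same in both fits, and without GT E-L31 2010 in place of that library the CL step was 7.76 as well (adjusted p = 0.0057, called). In GT the step was 0.06 ± 1.28 (adjusted p = 0.99) with the library, and 0 transcripts of any kind were called there. At an unadjusted p under 0.05 that step had 2215 transcripts, and DESeq2's Wald test called 158. Without the library GT E-L31 rests on a single sample at 0 reads, assumed to vary like the other groups (adjusted p = 0.043, called, as were 9.68% of all transcripts).

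The difference between the regions in this step, GT minus CL, was -7.69 ± 2.36 on the log2 scale (adjusted p = 0.59) with the library and 4.17 ± 9.29 (adjusted p = 0.89) without it. For this difference 0 transcripts were called by edgeR in either fit. With all 16 samples 1443 had an unadjusted p under 0.05, and DESeq2 called 83. Without that library 2083 had an unadjusted p under 0.05. Leaving out GT E-L31 2010, so that the group rests on the library that stood apart, gave -8.65 with an adjusted p of 0.035.

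Within ripening berries no step of VviMYBA2 passed the test against the spread between vintages. E-L36 stood at 1.93 ± 0.92 over E-L35 on the log2 scale (adjusted p = 0.26), or 1.93 ± 0.59 (adjusted p = 0.080) without the library labelled GT E-L31 2011. E-L38 stood at -1.41 ± 0.91 over E-L36 (adjusted p = 0.48), or -1.42 ± 0.58 (adjusted p = 0.21) without it. The E-L36 value was above both E-L35 and E-L38 in 4 of 4 courses, but no call was reached, with 0.436% and 0.725% of all transcripts called at these steps, and 3.10% and 1.93% without that library. Stage accounted for 61.5% of the variance of VviMYBA2 on log2(RPKM + 1) over 16 samples, where the median transcript had 50.4%. Without the library that stood apart these shares were 91.3% and 56.7%. These shares include E-L31, and over the 12 samples of E-L35 to E-L38 alone they were 51.2% and 37.4%.

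**Figure D2:**
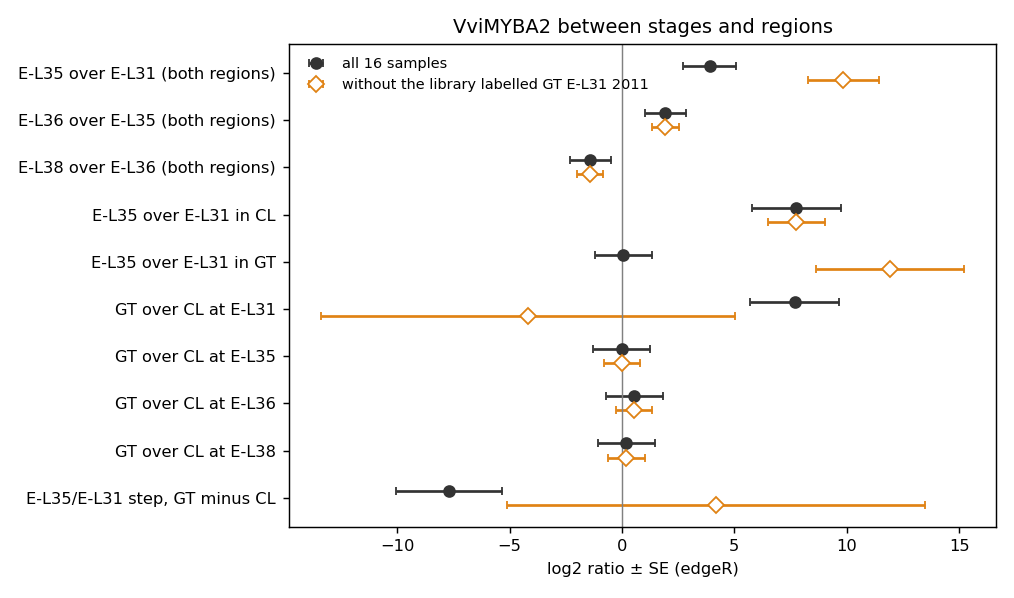
Log2 ratios of VviMYBA2 from edgeR with an SE derived from its F statistic (horizontal axis), for each comparison of stages or regions (rows). Black circles are all 16 samples, and orange diamonds are without the library labelled GT E-L31 2011. The rows that involve E-L31 in GT move, the mean step E-L35 over E-L31 among them (3.91 against 9.85), and the other rows keep their values with smaller errors.

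Between the regions no difference of VviMYBA2 in ripening berries passed the test. On the log2 scale GT over CL stood at -0.01 ± 1.27 at E-L35 (adjusted p = 1, edgeR), 0.55 ± 1.27 at E-L36 (adjusted p = 0.92) and 0.20 ± 1.27 at E-L38 (adjusted p = 0.99), and the share of all transcripts called was 0%, 0.0210% and 0.00526% (0.0211%, 0.0264% and 0.00527% without the library labelled GT E-L31 2011). At E-L35 edgeR called 0 transcripts, 2176 had an unadjusted p under 0.05 and DESeq2 called 148. At E-L31 it was 7.69 ± 1.97 (adjusted p = 0.18) with the library that stood apart and -4.18 ± 9.23 (adjusted p = 0.90) without it, and without GT E-L31 2010, so that the group rests on that library alone, it was 8.65 (adjusted p = 0.0085, called). Over the 6 pairs of ripening samples matched by stage and vintage, GT minus CL averaged 0.45 on log2(RPKM + 1), with GT higher in 4 of 6 pairs (exact two-sided sign-flip permutation p = 0.1875, where 0.03125 is the smallest possible). The 3 pairs of 2011 differed by 0.63 to 1.26, while those of 2010 lay between -0.11 and 0.10. With an SE of 1.27 log2 units in edgeR, these comparisons do not show that the regions were alike.

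Between vintages VviMYBA2 differed more at E-L35 than at E-L36 and E-L38 in both regions. The GT E-L31 pair, which holds the library that stood apart, differed by 5.802 on log2(RPKM + 1), and the CL E-L31 pair by 0.13. At E-L35 VviMYBA2 in 2011 was 0.287 times its 2010 level in GT and 0.152 times in CL. On log2(RPKM + 1) these are -1.73 and -2.55, at the 0.576th and the 0.0554th percentile of all transcripts, whose medians were 0.02 and 0.06. At E-L36 the ratio was 1.73 in GT and 0.660 in CL, and at E-L38 it was 0.694 in GT and 0.419 in CL. Among all transcripts these were at the 95.1th (GT) and 5.03th (CL) percentile at E-L36, and at the 4.30th (GT) and 1.73th (CL) percentile at E-L38. Over the 8 pairs of 2011 and 2010 samples the mean difference was 0.02 on log2(RPKM + 1) (exact two-sided sign-flip permutation p = 1). Without the GT E-L31 pair it was -0.81, lower in 2011 in 5 of 7 pairs (exact permutation p = 0.125). In edgeR the mean log2 ratio of 2011 over 2010 was -0.48 ± 0.80 (adjusted p = 0.95), and -0.999 ± 0.40 (adjusted p = 0.55) without the library labelled GT E-L31 2011. For vintage 0 transcripts were called in either edgeR fit. With all 16 samples 1349 had an unadjusted p under 0.05 in edgeR, and DESeq2 called 22. Without that library 1611 had an unadjusted p under 0.05.

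As a marker, VviMYBA2 placed both 2011 véraison samples nearer to E-L31 than the 2010 samples. Each E-L35 sample was put on a scale with the mean of the 3 other E-L31 samples at 0 and the mean of the E-L36 samples at 1, over the 1557 transcripts that differed by at least 2 on log2(RPKM + 1) between these ends. VviMYBA2 stood at 0.604 in GT 2011, 0.882 in GT 2010, 0.456 in CL 2011 and 0.867 in CL 2010. The medians of the 1557 transcripts were 0.646, 0.647, 0.671 and 0.744 in the same samples. The vintages were thus farther apart by VviMYBA2 than by these medians in both regions. Opposite shifts of single transcripts cancel in a median. The values therefore do not show whether VviMYBA2 shifted more than a typical transcript on this scale. They are a description of 4 samples, with no test.

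The same scale was laid between E-L31 and E-L35 to place each E-L31 library. Its 0 was the mean of the low E-L31 samples other than the library placed. In the library labelled GT E-L31 2011, VviMYBA2 stood at 1.30 and the median of 701 transcripts at 0.853 (quartiles 0.642 and 1.07). In the other 3 E-L31 libraries VviMYBA2 stood at -0.04 to 0.04 and the medians of all transcripts at 0.0128 to 0.229. Of 241 transcripts higher by at least 2 on log2(RPKM + 1) at E-L35 than in the 3 other E-L31 samples, 235 were above all of those 3 in that library, as were 22.96% of all transcripts. VviMYBA2 was thus 1 of many transcripts above the other E-L31 samples there.

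**Figure D3:**
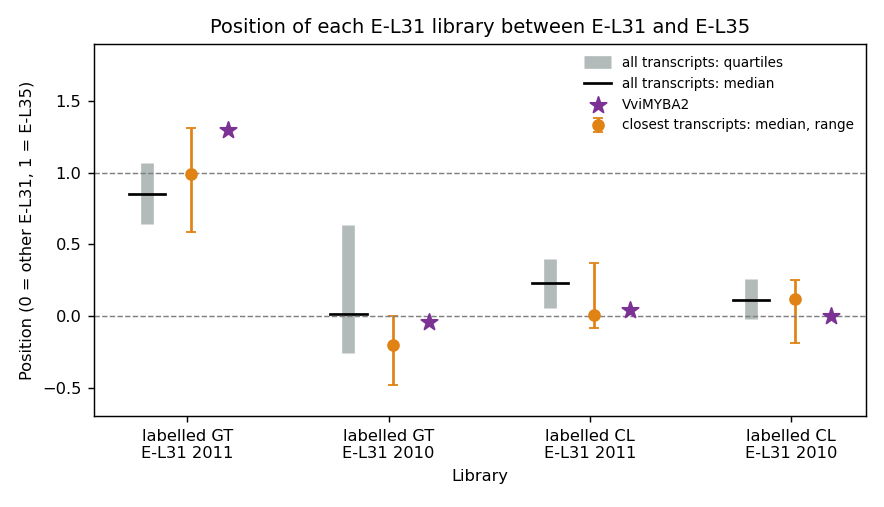
Position of each E-L31 library (horizontal axis) between the other E-L31 libraries (0) and the E-L35 samples (1) on log2(RPKM + 1), for all transcripts with a difference of at least 2 (grey bar for the quartiles, black line for the median), the transcripts closest to VviMYBA2 over the other samples (orange, median and range) and VviMYBA2 (star). In the library labelled GT E-L31 2011 all 3 lie near 1 (medians 0.853 and 0.995, VviMYBA2 1.30), and in the other 3 libraries they lie near 0.

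The transcripts that followed VviMYBA2 were listed by Pearson's r on log2(RPKM + 1) over the 16 samples. Such an r is a description: the points share stage, region and sequencing library, and any transcript that is low in 3 E-L31 samples and high elsewhere gets a high value. Of 18063 other transcripts 254 (1.41%) had an r of at least 0.8 and 53 of at least 0.9, while 2184 (12.1%) lay at or below -0.8, with a median of -0.46. The 20 closest had an r of 0.923 to 0.963, and the next transcript had 0.921. Over the 12 samples of E-L35 to E-L38 alone, the r of these 20 lay between 0.50 and 0.81 (median 0.67). The median of all transcripts was -0.28. These 12 samples were part of the choice, so a positive r there is in part built in. Ranked over the 12 samples alone, 6 of the 20 stayed among the 20 closest. In all 20, every ripening sample was above the 3 low E-L31 samples, as in 4.06% of all transcripts.

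The closest was XM_002266502.2 (r = 0.96). It had 158 RPKM in the library labelled GT E-L31 2011 and 46.3 to 54.1 RPKM in the other E-L31 samples, and 116 to 209 RPKM in the ripening samples. XM_002274317.1 (LOC100242603, r = 0.96) had 6389 RPKM in that library, 423 to 793 RPKM in the other E-L31 samples and 3919 to 10787 RPKM in ripening berries. Both ran on levels above that of VviMYBA2, as did 14 of the 20 by their mean RPKM. XM_002284998.2 (r = 0.93) was the most abundant, at 15643 to 65874 RPKM in ripening berries and 113 to 619 RPKM in the 3 low E-L31 samples, but only 1.8% of its reads were unique to it. XM_003631448.1 (r = 0.94) was listed at 0 in the 3 low E-L31 samples, at 104 RPKM in the library that stood apart and at 10.38 to 118 RPKM in ripening berries.

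The E-L36 peak of VviMYBA2 was shared in all 4 courses by 3 of the 20, XM_002274910.1, XM_002272443.2 and XM_002284998.2, beside 0.144% of all transcripts. In at least 3 of the 4 courses E-L36 was the highest stage for 12 of the 20, beside 1.15% of all transcripts. XM_002274910.1 (r = 0.95) was a weak transcript, at 0.148 to 0.172 RPKM in the 3 low E-L31 samples and 2.06 to 7.99 RPKM in ripening berries. At E-L35 the 2011 samples were below the 2010 samples in 19 of the 20 in GT (median difference -0.61 on log2(RPKM + 1)) and in 20 of 20 in CL (median -0.72), where 47.7% and 40.8% of all transcripts were lower. The 20 were chosen on these same samples, so nothing beyond these counts is read from them.

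**Figure D4:**
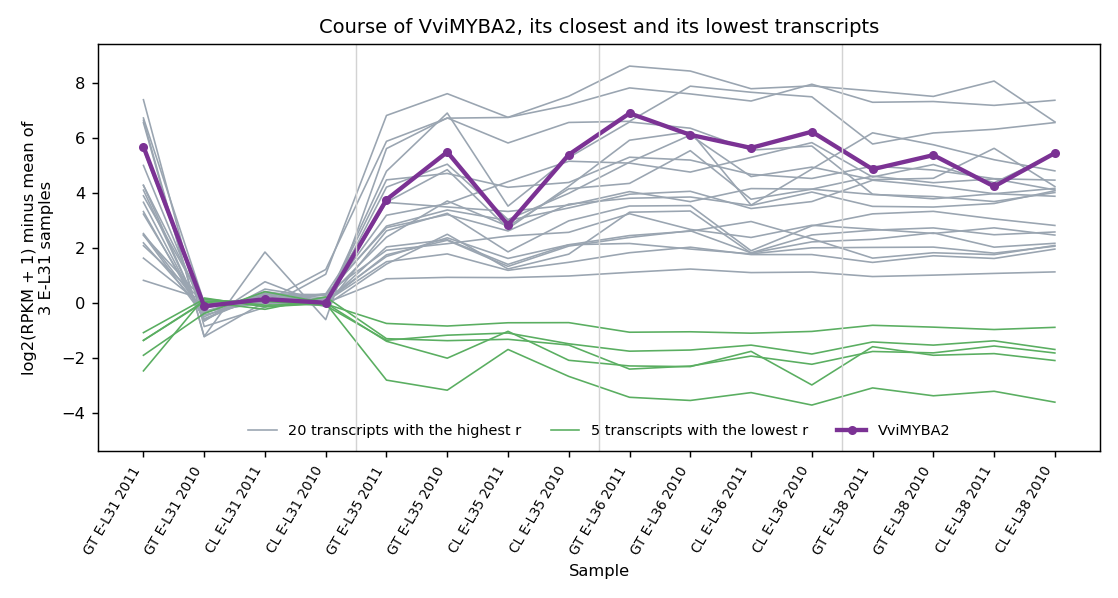
Log2(RPKM + 1) minus the mean of the 3 low E-L31 samples (vertical axis) in each sample (horizontal axis, by stage) for VviMYBA2 (purple), the 20 transcripts with the highest r (grey) and the 5 with the lowest (green). The grey and purple lines are up in the library labelled GT E-L31 2011, where VviMYBA2 had 54.8 RPKM, and in all E-L35 to E-L38 samples, and the green lines are down in the same samples.

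At the E-L35 over E-L31 step 3 of the 20 were called with all 16 samples, beside 1.04% of all transcripts called higher, and 20 of 20 without the library that stood apart, beside 5.64%. The rule used these samples, so nothing is read from these counts. The 3 were XM_002274910.1 (log2 ratio 2.81, and 4.74 without that library), XM_002281099.1 (2.65 and 5.05, with 37.6% unique reads) and XM_002276041.2 (2.87 and 5.40). Only 1 of the 20 is among the 416 transcripts that the study's tables or RefSeq name, and 11 matched a RefSeq LOC symbol.

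That one is the glucosyltransferase VviUGT85A1L3 (XM_002268601.2, r = 0.93), from the family that attaches glucose to monoterpenols. It had 53.7 RPKM in the library labelled GT E-L31 2011 and 0 to 0.379 RPKM in the other E-L31 samples. In ripening GT berries it had 13.5 to 84.9 RPKM, and in CL berries 6.47 to 41.3 RPKM. At harvest in GT it had 82.3 RPKM in 2011 and 60.7 RPKM in 2010, where VviMYBA2 had 30.5 and 43.97 RPKM. Its relative VviUGT85A2L4 (XM_002285734.2) had an r of 0.78 over 16 samples and 0.04 over the 12 ripening samples. It reached 210 RPKM in CL E-L36 2011 and stood at 14.5 RPKM in the library labelled GT E-L31 2011.

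Among the other named transcripts the closest was the terpene synthase XM_003635129.1 (r = 0.89, and 0.73 over the 12 ripening samples). The study lists it with the TPS-g monoterpene synthases and gives its NCBI annotation as a nerolidol synthase. Terpene synthases of this class make acyclic terpene alcohols. At E-L35 it had 2.97 RPKM in 2011 and 16.5 RPKM in 2010 in GT, and 0.159 RPKM in 2011 and 3.54 RPKM in 2010 in CL, the same order of vintages as VviMYBA2. Only 28.5% of its reads were unique to it, so its level is shared with near copies. HDR (XM_002284623.2, r = 0.74), the last enzyme of the plastid route to terpene precursors, had 214 to 281 RPKM in the 3 low E-L31 samples and 303 to 669 RPKM in ripening berries.

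Of transcription factors, the nuclear factor Y subunit B-8-like XM_002273195.1 came closest (r = 0.85), with 2.11 to 2.64 RPKM in the 3 low E-L31 samples and 3.46 to 9.42 RPKM in ripening berries. The WRKY23-like factor XM_002277846.2 (r = 0.78) and the ERF003-like factor XM_002285337.1 (r = 0.75) had -0.21 and 0.01 over the 12 ripening samples. Their likeness was thus seen only with the E-L31 samples included. Values of the same kind were found for the WRKY factor XM_002284930.1 (0.64 and -0.09) and the ERF factor XM_002263269.2 (0.55 and -0.45). The trihelix factor GT-2-like XM_002266159.1 had 0.68 and 0.05. The study reports VviMYBA2 and these WRKY and ERF factors, WRKY23-like and ERF003-like among them, as co-expressed with a gene it writes as VviGT1. It states no correlation of these factors with VviMYBA2. Of the 354 named transcripts with an r, 4 lay at or above 0.8 and 117 (33.1%) at or below -0.8, beside 1.41% and 12.1% of all transcripts. Among them the 32 bHLH, 45 ERF and 21 WRKY factors had medians of -0.77, -0.77 and -0.79, against -0.46 for all transcripts. The study listed transcription factors by their correlation with terpene genes over these same samples, so these shares and medians are no independent evidence.

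Over the 12 ripening samples alone the closest was another transcript, XM_002265827.2 (LOC100259100, r = 0.90, and 0.81 over 16 samples), singled out after its values were seen. In GT it had 5.76 RPKM in 2011 and 17.5 RPKM in 2010 at E-L35 and 25.5 RPKM and 17.9 RPKM at E-L36. In CL it had 6.52 RPKM in 2011 and 13.6 RPKM in 2010 at E-L35 and 16.3 RPKM and 19.7 RPKM at E-L36. In the library labelled GT E-L31 2011, where VviMYBA2 had 54.8 RPKM, it had 5.74 RPKM, within the 2.75 to 8.75 RPKM of the other E-L31 samples.

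**Figure D5:**
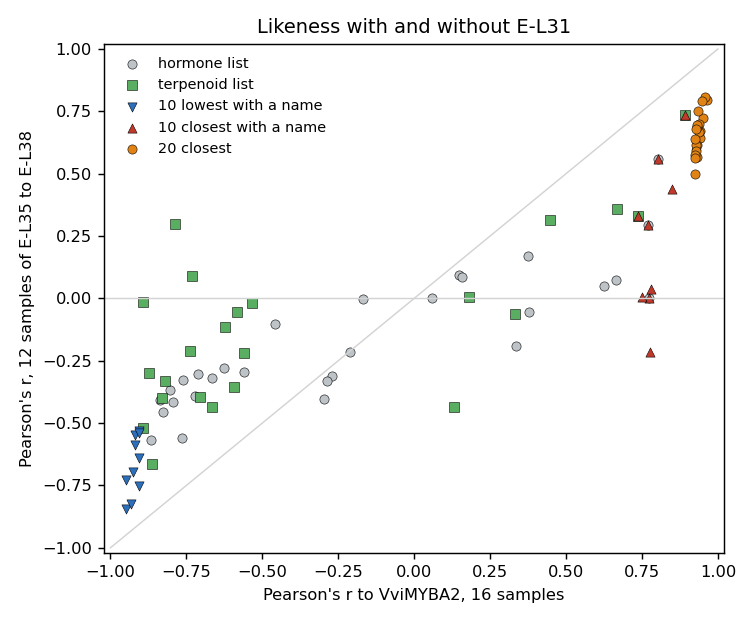
Pearson's r to VviMYBA2 over the 16 samples (horizontal axis) and over the 12 samples of E-L35 to E-L38 (vertical axis) for the 20 closest transcripts, the 10 closest and 10 lowest with a name, and the hormone and terpenoid lists. The diagonal marks equal values. The 20 closest, chosen over samples that include these 12, lie at 0.50 to 0.81 in ripening berries. Several named transcripts with an r above 0.7 lie at about 0 there, such as VviUGT85A2L4 at 0.04.

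The other genes of the colour pathway that could be matched by name were few. Relatives, partners and enzymes were counted together with sugar transporters and hormone genes in 7 lists. Of the 40 transcripts tested, 29 were hormone and 5 sugar transporter transcripts. At the E-L35 over E-L31 step 4 of the 40 rose and 2 fell, beside 1.04% and 3.11% of all transcripts. Their median log2 ratio was -0.02, against -0.01 for all transcripts. The hormone list, which the study chose on these samples, held all 4 that rose and 1 of the 2 that fell. The other that fell came from the list of partners. Without the library that stood apart 6 rose and 8 fell, beside 5.64% and 8.07%. The count of 6 called was 0 without CL E-L31 2011, CL E-L35 2011, CL E-L35 2010, GT E-L35 2011 or GT E-L38 2010, 1 without GT E-L35 2010, and 2 without CL E-L31 2010 or GT E-L38 2011. MYCA1 (XM_003633902.1), a bHLH partner of MYB factors in anthocyanin synthesis, fell, with a log2 ratio of -1.05 ± 0.24 (adjusted p = 0.037), though only 4.5% of its reads were unique. It had 11.99 RPKM in the library labelled GT E-L31 2011, 12.97 to 27.0 RPKM in the other E-L31 samples and 2.57 to 9.15 RPKM in ripening berries. Its r to VviMYBA2 was -0.78.

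No enzyme of the route was called by edgeR with all samples, while DESeq2 called 1 of the 2 phenylpropanoid entry transcripts lower. Chalcone synthase CHS3 (XM_002263983.1), which starts flavonoid synthesis, had a log2 ratio of -1.20 ± 0.80 (adjusted p = 0.36) and ranged from 1.82 to 102 RPKM at E-L35. Flavonol synthase FLS1 (XM_002285803.2) had 0.38 ± 0.87 (adjusted p = 0.81), and 2.14 ± 1.23 (adjusted p = 0.23) without the library that stood apart, where it had 3.28 RPKM. Its highest levels were at E-L38. 4CL (XM_002274958.2), which prepares cinnamic acids for chalcone synthase, had -1.36 ± 0.45 (adjusted p = 0.088), and -1.69 (adjusted p = 0.014, called) without the library that stood apart. The phenylalanine ammonia-lyase transcript GVVPAL2 (XR_077533.2) had 0.24 (adjusted p = 0.86), and -0.02 (adjusted p = 0.99) without that library. The MYB75-like factor XM_002276490.2 had -0.58 (adjusted p = 0.74), and -0.11 (adjusted p = 0.97) without it. Of the 5 sugar transporter transcripts 0 were called in either edgeR fit and by DESeq2 (0 at an unadjusted p under 0.05 with all 16 samples, and 2 without that library), and their r to VviMYBA2 lay between -0.70 and -0.24. The green-tissue markers PSBP1 (XM_002283012.2) and PSBP2 (XM_002284220.2), subunits of the photosystem II oxygen-evolving complex, had an r of -0.68 and -0.91 and were not called in either fit. PSBP2 had 7.36 RPKM in the library labelled GT E-L31 2011, 12.04 to 16.3 RPKM in the other E-L31 samples and 3.08 to 7.12 RPKM in ripening berries.

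Of the 29 hormone transcripts, which the study chose on these samples and which are no independent evidence, 4 rose and 1 fell, beside 1.04% and 3.11% of all transcripts. Without the library that stood apart 6 rose and 6 fell, beside 5.64% and 8.07%, and DESeq2 with all samples called 5 higher and 3 lower. CCD4 (XM_002270125.1), which cleaves carotenoids, rose by 2.19 ± 0.54 on the log2 scale (adjusted p = 0.044), and by 4.01 ± 0.30 (adjusted p = 6.24e-05) without that library, with an r to VviMYBA2 of 0.77. The abscisic acid receptor PYR1-like XM_002280325.1 rose by 1.30 (adjusted p = 0.029), the phytoene synthase XM_002283157.2, at the entry to carotenoids, by 1.25 (adjusted p = 0.032) and the ERF062-like factor XM_002267968.1 by 1.76 (adjusted p = 0.024), all in edgeR. Few reads of that phytoene synthase (4.61%) were unique to it. The ethylene-forming oxidase ACO1 (XM_002273394.2) had a log2 ratio of -2.43 (adjusted p = 0.030) and fell, while the ACO1-like XM_002279710.2 had 3.08 ± 0.94 (adjusted p = 0.074), and 6.26 (adjusted p = 0.00056, called) without the library that stood apart. The ACO1-like transcript had 114 RPKM in that library and 0.484 to 1.21 RPKM in the other E-L31 samples, with an r to VviMYBA2 of 0.77. The ERF5-like factor XM_002281777.2 had -1.80 (adjusted p = 0.14), and -2.23 (adjusted p = 0.030, called) without it.

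Of the 43 terpenoid transcripts 25 were tested, and 0 rose and 3 fell in edgeR, beside 1.04% and 3.11% of all transcripts. The 3 were terpene synthases (XM_002263544.2 at -4.31, XM_003634850.1 at -3.44 and XM_002267123.1 at -2.10). Their r to VviMYBA2 was -0.89, -0.82 and -0.79. In edgeR 4 of the 25 were higher at an unadjusted p under 0.05, and DESeq2 called 0 higher and 6 lower. Without the library that stood apart 3 rose and 5 fell, beside 5.64% and 8.07% of all transcripts, HDR (1.08), XM_003635129.1 (7.68) and XM_003635122.1 (3.92) being the 3.

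At the other end, the 5 transcripts with the lowest r lay between -0.96 and -0.95, led by XM_002285519.2 (LOC100263843), with 5.72 RPKM in the library labelled GT E-L31 2011, 15.1 to 17.0 RPKM in the other E-L31 samples and 3.76 to 7.09 RPKM in ripening berries. Of the 5, XM_002284610.1 was called at the E-L35 step (-2.21 ± 0.49, adjusted p = 0.036, edgeR). Without the library that stood apart it had -2.63 (adjusted p = 0.00034), and XM_002285519.2 (-1.13), XM_002280217.2 (-1.21) and XM_002279443.1 (-1.11) were called as well. XM_002284610.1 had 3.53 RPKM in that library, 21.7 to 27.4 RPKM in the other E-L31 samples and 0.917 to 6.77 RPKM in ripening berries. The MYC2-like factor XM_002280217.2, whose Arabidopsis relative acts in jasmonate signalling, was the lowest with a name (r = -0.95). It had 24.9 RPKM in that library, 73.4 to 128 RPKM in the other E-L31 samples and 11.3 to 46.4 RPKM in ripening berries. It was followed by bHLH128-like (XM_002268499.2, -0.95) and PIF3-like (XM_002276162.2, -0.93), whose Arabidopsis relative acts in light signalling. Within ripening berries, which were part of that ranking, these 3 had an r of -0.84, -0.73 and -0.82.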

How the data were processed

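RNA of deseeded berries was made into strand-specific libraries and sequenced on an Illumina HiSeq instrument. The authors mapped trimmed reads to Vitis vinifera RefSeq mRNAs with CLC Genomics Workbench, at up to 2 mismatches and 10 hits per read, and divided multi-hit reads by the unique reads of each transcript. The deposited tables hold, per transcript, total and unique read counts for each library and the RPKM that the authors computed from them. Recomputing RPKM from the total counts gave a largest relative error of 1.3e-14, and a further column of expression values repeated the RPKM in every row (0 values differed). Terpene synthases from the authors' second reference were not analysed here.

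Library counts of a sample were summed, and the RPKM of a sample is the mean of its libraries. Transcripts with at least 10 reads in at least 2 of the 16 samples (19026) were tested with edgeR 4.0.16 (quasi-likelihood, TMM normalisation, Benjamini-Hochberg adjustment over all transcripts), in 1 fit of 8 groups of stage and region with the 2 vintages as replicates. Each sample comes from 1 vineyard and season, with 1 library or the sum of 2, so the error behind a p-value is how far the 2 seasons of a group lie apart. The SE beside an edgeR log2 ratio is the size of the ratio divided by the square root of the F statistic of its test. Where a group holds 0 reads, this SE depends on the prior count, as the ratio does, and is no measured spread. Likeness was computed over transcripts with at least 1 RPKM in some sample. Paired differences had exact sign-flip permutation tests. Alternatives used limma 3.58.1 and DESeq2 1.42.0, pseudocounts of 1 and 0.1 RPKM, unique reads, other samples and each library as its own value. The edgeR step was checked on simulated data.

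Groups came from the sample labels. The vintage is the replicate number of a sample: over 28 pairs of groups the correlation of same-vintage deviations ran from -0.38 to 0.34 (median 0.0085, 7 over 0.1).

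The transcripts named are VviMYBA2, the 20 with the highest and the 5 with the lowest r, and MYB relatives. Up to 4 members of each list with the largest log2 ratio at E-L35 over E-L31 are named too. A further 7 come from the study's co-expression text. Members of lists that were called, the closest and lowest transcripts with a name, the terpenoid list and the position scales were added after the data were seen. The members and lists were chosen with earlier results of these data known. Names came from the study's tables and from RefSeq (14054 of 23984 transcripts matched). VviMYBA1, the flavonoid glucosyltransferase, WD40 partners and seed markers were not analysed here.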

Additional observations from a re-analysis of the deposited data

Results flagged for a closer look

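Among the 4 samples labelled E-L31, VviMYBA2 in the library labelled GT E-L31 2011 (54.8 RPKM) lay far from the others: its gap to the nearest sample was 0.996 of the range of the group, above the 95% critical value of Dixon's test for 4 samples. The same library was the far sample for 787 of the 1608 transcripts (8.90% of 18064) with such a gap at E-L31, and chance gives a gap of this kind in about 1 in 20 groups. At the later stages VviMYBA2 had gaps under that value, with 0.169 of the range for E-L35, 0.637 for E-L36 and 0.412 for E-L38.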

How the results depend on the processing

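The E-L35 over E-L31 step of VviMYBA2 kept its direction in both regions together and in CL under every alternative run, and its call changed. Both regions together it was called under DESeq2 (3.94) and with the libraries entered separately (3.97), which counts libraries of 1 vineyard and season as replicates. Limma gave 2.94 and 4.82 at pseudocounts of 1 and 0.1 RPKM, and 4.04 and 6.20 in CL, none of them called. Leaving out 1 sample gave 2.95 to 9.85 there and 5.84 to 8.55 in CL, where DESeq2 (7.79) and each library (7.78) also called it. In GT the step had 1.84 and 3.45 with limma at these pseudocounts, -0.27 with vintage as a replicate block and -1.04 to 11.93 when 1 sample was left out, the high end without the library labelled GT E-L31 2011.

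GT over CL at E-L31 was called under DESeq2 (7.69) and with separate libraries (7.66), was 2.71 and 3.30 with limma (adjusted p = 0.46 and 0.58), and ran from -4.18 to 8.65 over samples left out. At E-L35 the ratio was near 0 and changed sign with size factors of DESeq2's kind (0.0015), limma (0.51 and 0.55), unique reads (0.060), each library (0.047) and the vintage block (0.045), and ran from -1.11 to 1.91 over samples left out. Over samples left out it ran from -0.025 to 1.06 at E-L36, from -0.32 to 1.00 at E-L38, and from -8.79 to 4.17 for the difference of the steps, which limma gave as -2.20 and -2.74. The 2011 over 2010 ratio was 0.015 and 0.46 with limma, -0.94 with separate libraries, and -0.9999 to -0.087 over samples left out, the low end without either GT E-L31 sample. The paired vintage difference was -0.030 on TMM-scaled counts and ran from -0.81 to 0.38 over pairs left out. For the other comparisons the replicate block of vintage changed no call (both regions together, E-L35 over E-L31, 3.67 and adjusted p = 0.10).

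Of the pathway lists 6 transcripts were called at the first step, 10 under DESeq2, 13 with separate libraries and 0 to 14 over samples left out. Of the 20 transcripts closest to VviMYBA2, 6 were shared on RPKM without a log, 7 by Spearman's rho, 10 on deviations from stage means, 10 over the 8 samples of 2010, 7 over those of 2011, 6 over those of CL, 5 over those of GT, 6 over the 12 samples of E-L35 to E-L38 and 11 to 19 over samples left out (15 without the library labelled GT E-L31 2011, and 11 without CL E-L35 2011). The causes were not tested. With 2 vintages a group, the depth of 3798921 reads in GT E-L31 2010 limits what can be said of VviMYBA2 there to a level of up to 0.682 RPKM.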
